A study of Mus musculus with 5 samples.

Results

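The MHC class II genes Cd74, H2-Aa, H2-Ab1, H2-Eb1, H2-DMa, H2-DMb1 and H2-DMb2, together with their regulator Ciita, were followed in single myeloid cells sorted from the mouse brain. The 8 genes were taken by symbol from tables of 52542 genes, of which 16856 had at least 1 UMI (unique molecular identifier, a count of 1 captured mRNA molecule) in a kept cell. They held 29998 of the 1132493 UMIs in 825 kept cells, a level of 264.88 UMIs per 10000.

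MHC class II molecules present peptides of ingested proteins to CD4+ T cells. An alpha and a beta chain are assembled around the invariant chain, which fills the groove until endosomal proteases cut it down and the DM proteins exchange the remainder for a peptide. Transcription of these genes depends on the coactivator Ciita, which interferon gamma induces in macrophages. In the healthy brain, class II is known to be low on parenchymal microglia and higher on some macrophages of the meninges, choroid plexus and perivascular spaces and on dendritic cells.

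All 5 libraries carry the same labels: brain immune cells of DM-hTAU mice aged 9 months that had received aPDL1, an antibody that blocks the checkpoint ligand PD-L1. DM-hTAU mice are heterozygous for a human tau transgene with frontotemporal dementia mutations, driven by the natural TAU promoter on a BALBc-C57/BL6 background. The study's text describes sorting from control-antibody (IgG2b) as well as anti-PD-L1 groups, while the legend of its single-cell figure names only anti-PD-L1-treated mice. The labels of these 5 libraries also give only aPDL1, and the labels were followed here. Cells were sorted one per well as CD45high CD11bhigh and read by MARS-seq, which counts UMIs at the 3′ end of mRNA. With a single labelled group no treatment was compared, and the libraries are not tied to separate mice. The p-values measure only a spread between libraries, and that spread was estimated over all genes together rather than gene by gene.

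Of 1900 wells with a cell, 825 held at least 500 UMIs and were kept, between 68 and 314 in each library. Median depth was 1015 UMIs per kept cell, and it was lower in libraries 1, 2 and 4 (680, 759 and 651) than in libraries 3 and 5 (1168 and 1267.5). No well identifier occurred in more than 1 library. Library 4 stood apart in the cells that reached none of the marker thresholds described below, with 60.7 class II UMIs per 10000 against 240.05 to 369 in the other 4 libraries. Member levels are therefore given by library as well as pooled.

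Kept cells were gated on marker genes that include none of the 8 members. The microglia gate required at least 150 UMIs per 10000 of a list led by P2ry12 and Tmem119 and took 130 cells. The border macrophage gate (at least 20 per 10000 and 2 genes of a list with Pf4, Mrc1, Lyve1 and Cd163) took 135 cells. The monocyte gate (at least 20 per 10000 and 2 genes of a list with Ly6c2, Ccr2 and Plac8) took 56 cells. The Cd209a gate, at least 2 UMIs and 10 per 10000 of this C-type lectin of dendritic and monocyte-derived cells, took 40 cells. The neutrophil gate (at least 500 per 10000 of a list led by S100a8 and S100a9) took 28 cells, which served as the background for genes that neutrophils usually lack. Another 29 cells passed more than 1 gate, most often microglia with border macrophage in 16 cells, and 407 cells passed no gate. The defining B cell genes Cd79a, Ms4a1 and Pax5 were at 0 UMIs in every gate, and the 7 genes of the B cell list summed to between 1.53 and 4.35 per 10000 in the 5 gates.

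Apart from Ciita and the invariant chain gene Cd74, the members lie together on mouse chromosome 17. In the GENCODE annotation of GRCm38 they follow each other as H2-DMa (chr17:34119541-34139101), H2-DMb2 (chr17:34143307-34151555), H2-DMb1 (chr17:34153072-34160230), H2-Ab1 (chr17:34257689-34269419), H2-Aa (chr17:34282744-34287823) and H2-Eb1 (chr17:34305867-34316674). H2-Aa is on the minus strand and the other 5 on the plus strand. Ciita lies apart, at chr16:10480059-10528418 on the plus strand. These 7 are annotated as protein coding.

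The stretch just upstream of class II genes is where the regulatory complexes that recruit Ciita assemble. Factors of the RFX and CREB families bind at the X boxes, and NF-Y binds at the Y box, an inverted CCAAT sequence. Of the 8 members 5 were matched to the RefSeq promoters used here (GRCm38.p6), and the bases from 130 to 31 before the RefSeq start site are shown for the 4 of these that held such letters. The RefSeq start sites of H2-DMb1 and H2-DMb2 lie inside the GENCODE spans given above, so the H2-DMb2 window and most of the H2-DMb1 window do as well. They are written 5′ to 3′ on the strand of the gene, with matches to the Y box (TGATTGG), the X box (AACN followed by GATGATG) or the cyclic AMP response element (TGACGTCA) in capitals.
H2-Aa, chr17:34287854-34287953, minus strand: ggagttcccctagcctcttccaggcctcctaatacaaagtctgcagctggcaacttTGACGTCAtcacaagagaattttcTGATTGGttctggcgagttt
H2-DMb1, chr17:34153061-34153160, plus strand: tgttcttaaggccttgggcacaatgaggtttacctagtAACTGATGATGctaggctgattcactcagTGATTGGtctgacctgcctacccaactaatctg
H2-DMb2, chr17:34145119-34145218, plus strand: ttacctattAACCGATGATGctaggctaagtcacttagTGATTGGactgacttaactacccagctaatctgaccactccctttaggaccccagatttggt
H2-Eb1, chr17:34305737-34305836, plus strand: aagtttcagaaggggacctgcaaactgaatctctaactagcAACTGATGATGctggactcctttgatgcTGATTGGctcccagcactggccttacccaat

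The first base of the Y box lay 50 bases before the start site in H2-Aa, where it is position -50, and at -63, -92 and -61 in H2-DMb1, H2-DMb2 and H2-Eb1. The X box began 29 bases before the Y box in H2-DMb1 and H2-DMb2 and 28 bases before it in H2-Eb1. In H2-Aa the cyclic AMP response element began 24 bases before the Y box. None of these matches overlapped. The letters were chosen after the sequences had been seen, and both strands of all 32851 RefSeq promoters were searched over the same 100 bases. The Y box occurred in 4.45% of them, the cyclic AMP response element in 0.886% and the X box in 0.0244%. Only 4 promoters held both the Y and the X box, those of H2-DMb1, H2-DMb2, H2-Eb1 and Nubp2. Both RefSeq promoters of H2-DMa held none of the 3 letter strings. H2-Ab1, Ciita and Cd74 were not searched.

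Summed over the 8 members, class II was highest in Cd209a-gated cells and lowest in neutrophil-gated cells. Pooled cells held 476 UMIs per 10000 in the Cd209a gate (95% Poisson interval 462 to 491), 324 in the monocyte gate (313 to 336) and 281 in the border macrophage gate (273 to 289). The microglia gate held 66.8 per 10000 (62.8 to 71.0) and the neutrophil gate 24.02 (18.04 to 31.3). These intervals cover counting error only. Cells in no gate held 286 per 10000, and cells in more than 1 gate 187 (103.5 without library 5).

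The spread between libraries was wider than the counting error. In the 5 libraries microglia-gated cells held 54.5, 132, 67.7, 137 and 43.2 class II UMIs per 10000 (86.9 ± 44.4, SD, n = 5 libraries). Border macrophage-gated cells held 300.5 in library 3 and 268 in library 5, the 2 libraries with at least 5 such cells. Monocyte-gated cells held 152, 415 and 306 in libraries 2, 3 and 5. Cd209a-gated cells held 415, 525 and 465 in the same 3 libraries, each above the monocyte value of its own library. Neutrophil-gated cells held 23.7, 31.6 and 26.4 in libraries 2, 4 and 5. The microglia values overlapped none of the other gates, but the highest microglia library (137) lay close to the lowest monocyte library (152), which rested on 5 cells.

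**Figure D1:**
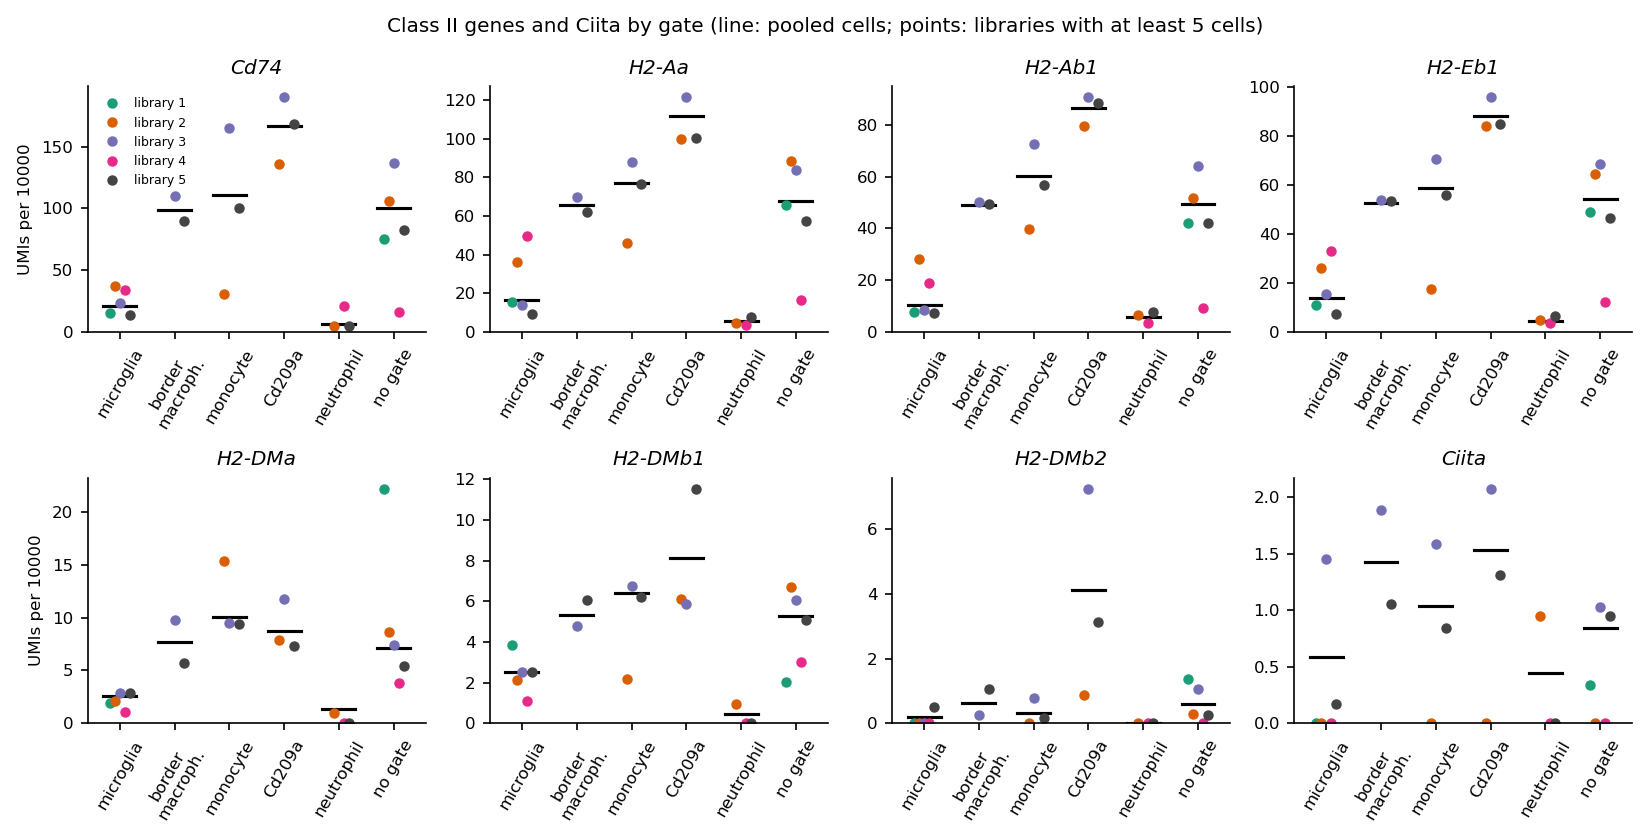
UMIs per 10000 (y axis) of each of the 8 members in cells of the microglia, border macrophage, monocyte, Cd209a and neutrophil gates and in cells of no gate. Black lines show pooled cells and coloured points show libraries with at least 5 cells of the gate. Cd74 runs from 6.23 in neutrophil-gated to 167 in Cd209a-gated cells, and H2-DMb2 reaches 7.24 and 3.14 in Cd209a-gated cells of libraries 3 and 5, above every point of the other gates.

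Cd74 encodes the invariant chain, which guides class II molecules to endosomes. Its pooled level was 20.6 UMIs per 10000 in microglia-gated, 98.9 in border macrophage-gated, 111 in monocyte-gated, 167 in Cd209a-gated and 6.23 in neutrophil-gated cells. By library it was 14.8, 37.4, 23.2, 34.0 and 13.7 in microglia-gated cells, 110.1 and 89.5 in border macrophage-gated cells, and 136, 190.1 and 169 in Cd209a-gated cells. Monocyte-gated cells ranged from 30.8 in library 2 to 166 in library 3, with 100.4 in library 5. The microglia libraries lay below all border macrophage and Cd209a libraries, and overlapped the monocyte libraries through library 2.

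H2-Aa and H2-Ab1 encode the alpha and beta chains of the I-A molecule, and H2-Eb1 the beta chain of I-E. H2-Aa was at 15.4, 36.0, 13.6, 49.4 and 9.16 per 10000 in microglia-gated cells of libraries 1 to 5. It reached 69.7 and 61.8 in border macrophage-gated cells of libraries 3 and 5. In libraries 2, 3 and 5 it was at 46.2, 87.9 and 76.6 in monocyte-gated cells and at 100.0, 121 and 100.3 in Cd209a-gated cells. Library 2 of the monocyte gate thus fell inside the microglia range, and all other libraries of these 3 gates lay above it.

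H2-Ab1 was at 7.70, 28.2, 8.51, 18.7 and 7.16 per 10000 in microglia-gated cells, at 50.3 and 49.5 in border macrophage-gated cells, at 39.6, 72.5 and 56.8 in monocyte-gated cells and at 79.8, 90.7 and 88.5 in Cd209a-gated cells. The 4 sets of libraries did not overlap except for border macrophage and monocyte. H2-Eb1 was at 10.9, 26.1, 15.6, 32.9 and 7.16 in microglia-gated cells, 53.7 and 53.5 in border macrophage-gated cells, 17.6, 70.5 and 55.8 in monocyte-gated cells and 84.2, 95.9 and 84.8 in Cd209a-gated cells. Its monocyte value in library 2 again fell within the microglia range. In neutrophil-gated cells the library values of H2-Aa, H2-Ab1 and H2-Eb1 lay between 3.51 and 7.77 per 10000.

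H2-DMa encodes the alpha chain of the DM peptide exchanger, and H2-DMb1 and H2-DMb2 encode alternative beta chains. H2-DMa was between 1.10 and 2.90 per 10000 in the 5 microglia libraries, at 9.81 and 5.68 in the border macrophage libraries, at 15.4, 9.51 and 9.40 in the monocyte libraries and at 7.89, 11.7 and 7.33 in the Cd209a libraries. H2-DMb1 was between 1.10 and 3.85 in the microglia libraries, at 4.78 and 6.07 in the border macrophage libraries and at 2.198, 6.73 and 6.21 in the monocyte libraries. It was at 6.14, 5.86 and 11.5 in the Cd209a libraries. For H2-DMa the microglia libraries lay below all libraries of these 3 gates. For H2-DMb1 the monocyte library 2 fell inside the microglia range.

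H2-DMb2 had the most uneven distribution of the members. It had 35 UMIs in 15 of the 40 Cd209a-gated cells (4.12 per 10000, 95% Poisson interval 2.87 to 5.73). It had 3 UMIs in microglia-gated, 10 in border macrophage-gated, 3 in monocyte-gated and 35 in the 407 ungated cells, which are levels of 0.195, 0.619, 0.310 and 0.604 per 10000. No H2-DMb2 UMI was found in neutrophil-gated cells, whose 22482 UMIs allow a level of up to 1.64 per 10000. The ratio of the Cd209a level was 21.2 to the microglia level (exact interval 6.67 to 108), 13.3 to the monocyte level (4.19 to 67.5), 6.66 to the border macrophage level (3.23 to 15.1) and 6.82 to the ungated level (4.14 to 11.2). These intervals treat UMIs as independent and cover counting error only.

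The Cd209a-gated cells of libraries 2, 3 and 5 held 0.877, 7.24 and 3.14 H2-DMb2 UMIs per 10000. Library 2 thus fell below the highest border macrophage library (1.06). Single cells weighed on this value: the highest Cd209a-gated cell had 10 H2-DMb2 UMIs, the next 6 and 3, and 8 of the 15 cells had 1. Without the highest cell the pooled level was 3.09 per 10000. In the last 300 bases of their transcripts, where a 3′ method reads, H2-DMb1 and H2-DMb2 shared 0 of 251 stretches of 50 bases. Of 271 stretches of 30 bases there, 5 of H2-DMb1 also occurred in H2-DMb2, and 0 of H2-DMb2 occurred in H2-DMb1. Over the last 500 bases 20.4% of the H2-DMb1 stretches of 50 bases also occurred in H2-DMb2.

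Ciita, the coactivator, was close to the limit of detection, with 105 UMIs in 66 of the 825 cells. Its pooled level was 0.584 per 10000 in microglia-gated (9 UMIs), 1.42 in border macrophage-gated (23), 1.03 in monocyte-gated (10), 1.53 in Cd209a-gated (13) and 0.445 in neutrophil-gated cells (1 UMI). The ratio to the microglia level was 2.62 for the Cd209a gate (exact interval 1.04 to 6.94), 2.44 for the border macrophage gate (1.09 to 5.98) and 1.77 for the monocyte gate (0.647 to 4.92). As for H2-DMb2, the intervals cover counting error only, with UMIs treated as independent. Libraries disagreed, since microglia-gated cells of library 3 held 1.45 per 10000 and those of libraries 1, 2 and 4 held none. Ciita did not pass the filter on low counts and has no edgeR test.

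Differences between gates were tested with edgeR on UMI sums per library and gate, 16 sums in all, with the library as a block and p-values adjusted by Benjamini-Hochberg over 1571 genes. The count filter was passed by 7 of the 8 members. Each contrast with microglia uses the same microglia sums, so the contrasts are not independent of each other. Of the 7 tested members 5 were higher in border macrophage-gated than in microglia-gated cells, against 2.36% of all genes tested, and none was lower, against 1.65%. Cd74 was higher by 2.10 ± 0.46 on the log2 scale (SE, 4.30-fold, adjusted p = 0.00045), H2-Ab1 by 2.12, H2-Aa by 1.97, H2-Eb1 by 1.86 and H2-DMa by 1.53 ± 0.45 (adjusted p = 0.022). H2-DMb1 (1.14, adjusted p = 0.26) and H2-DMb2 (1.33, adjusted p = 0.84) did not pass. The median over the tested members was 1.86, beside 0.09 over all genes. Both libraries with both gates, 3 and 5, showed the direction for each of the 5 genes. The count was 2 without library 1, or with cells from 300 UMIs, and 0 without library 3 or without library 5, where a single border macrophage sum was left, assumed to vary like the others (Cd74 then 1.95 ± 0.97 and 1.53 ± 0.83).

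All 7 tested members were higher in Cd209a-gated than in microglia-gated cells, where 11.1% of all genes were higher and 12.7% lower. The log2 fold change was 2.61 ± 0.41 for Cd74 (6.09-fold, edgeR adjusted p = 1.4e-08), 2.51 for H2-Ab1, 2.30 for H2-Aa, 2.27 for H2-Eb1, 1.51 for H2-DMb1 and 1.48 ± 0.44 for H2-DMa (adjusted p = 0.0062). For H2-DMb2 it was 3.99 ± 1.24 (adjusted p = 0.0086), with only 3 UMIs on the microglia side. The median of all genes was -0.28 in this contrast and that of the members 2.30. This count rested on libraries 3 and 5: without library 3 none of the 6 tested members passed, and without library 5 only 1 of 7 did.

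Against microglia, monocyte-gated cells had 5 of 7 members higher, with 6.05% of all genes higher and 7.83% lower. Cd74 (1.94 ± 0.42, edgeR adjusted p = 0.00016), H2-Ab1 (2.03), H2-Aa (1.83), H2-DMa (1.76) and H2-Eb1 (1.58) rose. H2-DMb1 (1.10, adjusted p = 0.13) and H2-DMb2 (0.50, adjusted p = 0.87) did not pass. Without library 3, or without library 5, none passed (Cd74 then 1.10 ± 0.80 and 1.17 ± 0.68), and with cells from 300 UMIs 2 passed.

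In neutrophil-gated cells 3 of 7 members were lower than in microglia-gated cells, while 13.7% of all genes were lower and 4.71% higher. Cd74 fell by 1.99 ± 0.58 on the log2 scale (edgeR adjusted p = 0.0066), H2-Aa fell by 2.27 and H2-Eb1 fell by 2.02. All genes together had a median of -1.48 in this contrast, so the members, with a median of -2.02, lay close to the shift of the whole table. Neither DESeq2 nor a fit of these 2 gates alone called any member, and without library 3, 4 or 5 a single member passed.

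Among the 3 gates with high class II, no member passed the test in any contrast at an adjusted p under 0.05. Higher genes made up 4.9% of all genes in Cd209a-gated against border macrophage-gated cells, 0.382% in Cd209a-gated against monocyte-gated cells and 3.5% in border macrophage-gated against monocyte-gated cells. Lower genes made up 8.91%, 1.46% and 1.53%. H2-DMb2 came closest, with a log2 fold change of 2.66 ± 1.14 for the Cd209a against the border macrophage gate (edgeR adjusted p = 0.10) and 3.49 ± 1.25 against the monocyte gate (adjusted p = 0.15). It was the only member with an unadjusted p under 0.05 in these contrasts. DESeq2 also called none. When the Cd209a and border macrophage sums were fitted alone, Cd74 (0.50), H2-Ab1 (0.50) and H2-DMb2 (2.55) passed, and without library 2 H2-DMb2 passed against both gates (2.69 and 3.63). For Cd74 the 95% interval of the log2 difference ran from -0.37 to 1.37 for the Cd209a against the border macrophage gate, from -0.10 to 1.44 against the monocyte gate and from -0.67 to 1.01 for the border macrophage against the monocyte gate. Differences of up to those bounds remain possible.

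**Figure D2:**
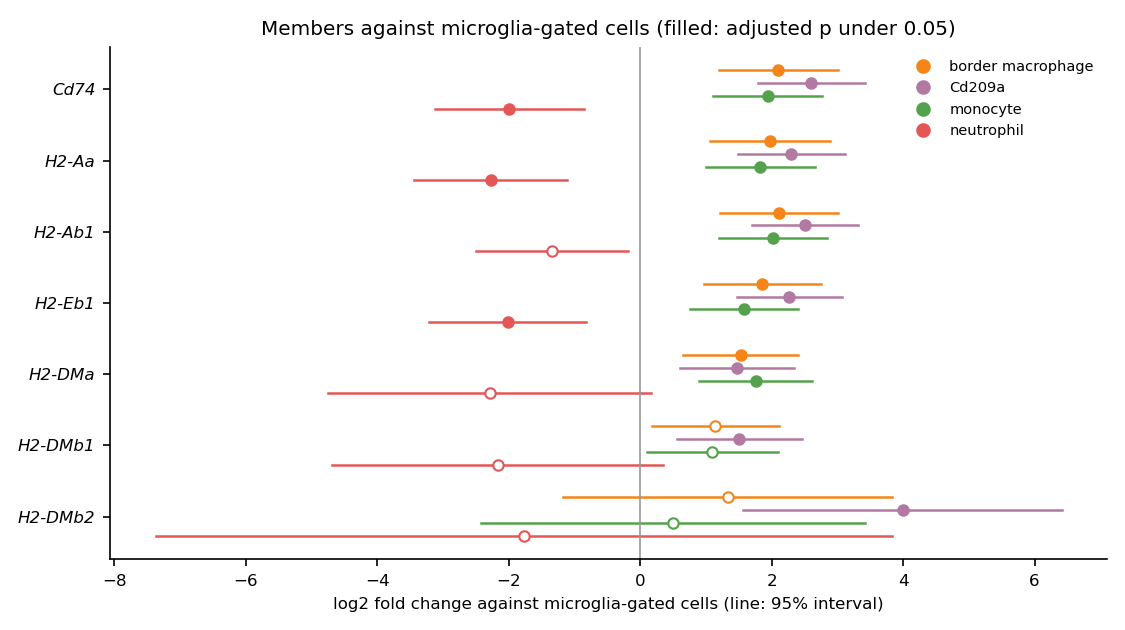
Log2 fold change (x axis) of the 7 tested members against microglia-gated cells, from edgeR, with lines for the 95% interval and filled points for an adjusted p under 0.05. Points of the border macrophage, Cd209a and monocyte gates lie to the right of 0 for every member, and those of the neutrophil gate, where H2-DMb2 had 0 UMIs, lie to the left, where the median of all genes is -1.48.

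Class II was spread unevenly over the single cells of some gates. In microglia-gated cells the median cell held 30.5 class II UMIs per 10000, 18 of 130 cells held none and 18 of 130 held 100 or more. The cells at 100 or more were 2 of 19, 5 of 15, 6 of 42, 4 of 14 and 1 of 40 in libraries 1 to 5. The 13 cells with the most class II UMIs, counted without regard to depth, held 58.7% of all class II UMIs of this gate. Border macrophage-gated cells had a median of 253 per 10000, 91 of 135 cells at 100 or more and only 2 cells between 90 and 110. In the monocyte gate the median was 327 and 40 of 56 cells were at 100 or more. Every Cd209a-gated cell was above that level, from 221 to 746 per 10000 with a median of 488. Only 1 of 28 neutrophil-gated cells reached 100.

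**Figure D3:**
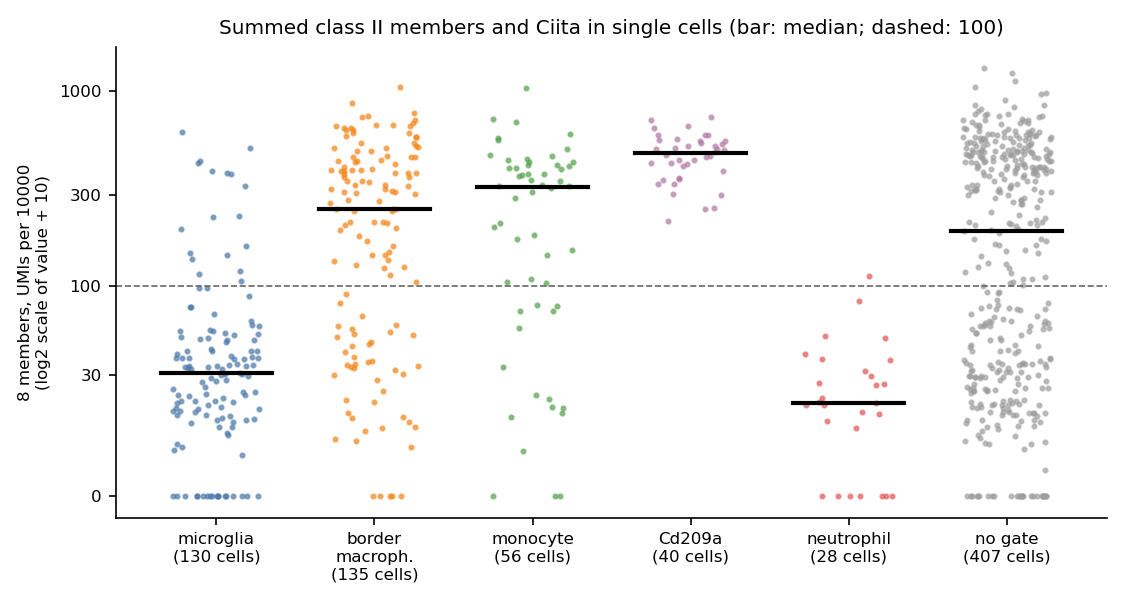
Summed UMIs per 10000 of the 8 members in single cells (y axis, log2 scale of value + 10), 1 point a cell, with black bars at the median of each gate and a dashed line at 100. All 40 Cd209a-gated cells lie above the line, the 130 microglia-gated cells mostly below it (112 of 130), and border macrophage-gated and ungated cells fall on both sides.

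Detection was compared after every cell had been thinned to 500 UMIs. At least 3 of the 8 members were found in 99.9% of Cd209a-gated, 71.6% of monocyte-gated, 69.4% of border macrophage-gated and 59.0% of ungated cells. The share was 21.5% in microglia-gated cells and 8.05% in neutrophil-gated cells, the background. Without thinning they were 100% in Cd209a-gated, 78.6% in monocyte-gated, 80% in border macrophage-gated, 72.0% in ungated, 46.2% in microglia-gated and 17.9% in neutrophil-gated cells. By library the thinned share in microglia-gated cells was 20.7%, 42.6%, 20.4%, 28.6% and 12.5%. In libraries 2, 4 and 5 that was above the neutrophil share of the same library (7.18%, 18.2% and 5.67%). Median depth was 894.5 UMIs in microglia-gated, 973 in border macrophage-gated, 1260.5 in monocyte-gated, 1882 in Cd209a-gated and 666 in neutrophil-gated cells.

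Members were found together in the same cells. Across all 825 kept cells the correlation of log2 levels was 0.76 for Cd74 with H2-Aa, 0.75 for Cd74 with H2-Ab1 and 0.75 for Cd74 with H2-Eb1. With H2-DMa it was 0.34 and with Ciita 0.20, genes with few UMIs in a cell. Within border macrophage-gated cells Cd74 and H2-Ab1 reached 0.81 (n = 135 cells), and within monocyte-gated cells Cd74 and H2-Aa reached 0.91 (n = 56). It was lower in microglia-gated cells, 0.49 for Cd74 with H2-Aa (n = 130), and lower still in Cd209a-gated cells, 0.16 (n = 40), where every cell was high. Cells share libraries and their levels share a depth, so these values describe the cells and carry no test.

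Cells with a Ciita UMI also held more UMIs of the genes that Ciita controls, as a description with no test. The 66 cells with Ciita held 430 UMIs per 10000 of the other 7 members, and the 759 without it held 237. Within the microglia gate these values were 226 in 5 cells and 58.5 in 125 cells, and within the border macrophage gate 432 in 14 cells and 258 in 121 cells. In the Cd209a gate they were 480.2 in 8 cells and 473 in 32 cells. Cells with a Ciita UMI were also deeper, with a median of 1624.5 against 973 UMIs. The part of depth in this was not tested.

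The mix of members was compared as shares of class II UMIs. Cd74 made up 35.2% of the class II UMIs in border macrophage-gated, 34.1% in monocyte-gated and 35.1% in Cd209a-gated cells, and 30.8% in microglia-gated cells (exact 95% interval 27.97% to 33.7%). H2-DMa and H2-DMb1 made up 3.88% and 3.79% of the microglia UMIs (40 and 39 of 1030), against 2.73% and 1.89% in border macrophage-gated cells. Across the microglia libraries the share of H2-DMa ran from 0.80% to 6.56%. H2-DMb2 made up 0.865% of class II UMIs in Cd209a-gated cells (0.603% to 1.201%) and between 0.0956% and 0.291% in the microglia, border macrophage and monocyte gates.

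Within the border macrophage gate, cells with high and low class II differed in the markers that defined the gate. The 91 cells at 100 or more class II UMIs per 10000 held 62.2 UMIs per 10000 of the border macrophage list and the 44 cells under 100 held 108. In library 3 these values were 64.0 and 109.6, and in library 5 58.4 and 107.6. Lyve1, a hyaluronan receptor of perivascular and meningeal macrophages, was at 1.99 in the high and 7.81 in the low cells. Cd209f, a C-type lectin, was at 0.906 and 7.03, Cbr2, a carbonyl reductase, at 3.17 and 8.78, and the scavenger receptor Stab1 at 10.1 and 21.3. The mannose receptor Mrc1 was at 18.3 and 28.3 and the haemoglobin scavenger receptor Cd163 at 4.44 and 7.22. For these 6 genes the high cells were lower in both libraries. Smaller gaps were seen for Pf4 (6.79 and 8.39) and Ms4a7 (5.98 and 7.03). Folr2 went opposite ways in libraries 3 and 5, and F13a1, at 7.79 and 8.98 over all cells, was above the low cells in both of these libraries. Because the gate is set on these genes and the cells were divided by class II level, the values are a description.

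**Figure D4:**
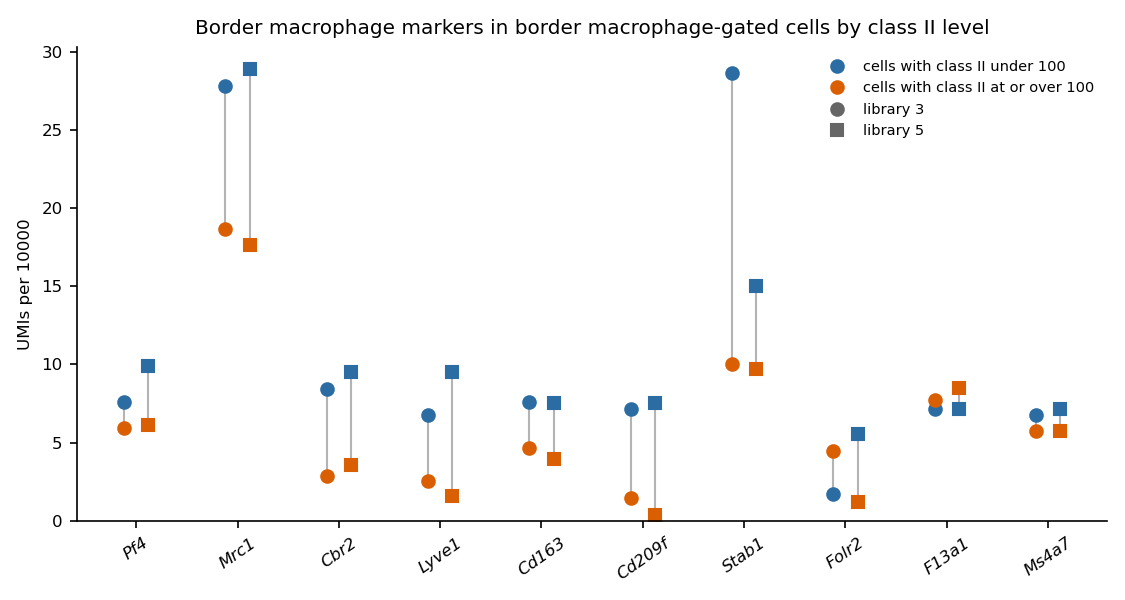
UMIs per 10000 (y axis) of the 10 border macrophage list genes in border macrophage-gated cells with class II at or over 100 (orange) or under 100 (blue), for library 3 (circles) and library 5 (squares), each pair joined by a line. Lyve1, Cd209f, Cbr2, Stab1, Mrc1 and Cd163 are lower in the orange points of both libraries.

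The monocyte receptor Ccr2 was at 2.63 per 10000 in the high and 0.585 in the low border macrophage-gated cells (29 and 3 UMIs). Most of these, 23 UMIs, were in library 5. The monocyte list as a whole was at 4.17 and 1.76, and the microglia list at 44.7 and 49.96. Median depth was alike, 973 and 972 UMIs. Among microglia-gated cells, the 18 with class II of 100 or more had the microglia list at 209 and the 112 others at 226. In those 18 cells the border macrophage list stood at 11.002 against 4.44 and the monocyte list at 5.92 against 1.53. The part of mixed wells in this was not tested.

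Among pooled cells of no gate or of the microglia gate, class II was lower where the microglia marker level was higher. From the lowest to the highest class of the microglia list, cells held 400.2, 316, 164, 132 and 66.8 class II UMIs per 10000, in 156, 79, 91, 81 and 130 cells. The limits of the classes (25, 50, 100 and 150 per 10000) were chosen after the data had been seen. From the lowest to the highest class it went from 510.3 to 67.7 in library 3 and from 360.0 to 43.2 in library 5. Library 4 did not show this, with 30.9, 47.8, 108, 44.2 and 137, in 4 to 14 cells a class. The border macrophage list stayed between 4.59 and 8.12 per 10000 in the pooled classes. Cells passing the border macrophage gate had been left out of these classes, so a low level was set by the gating.

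**Figure D5:**
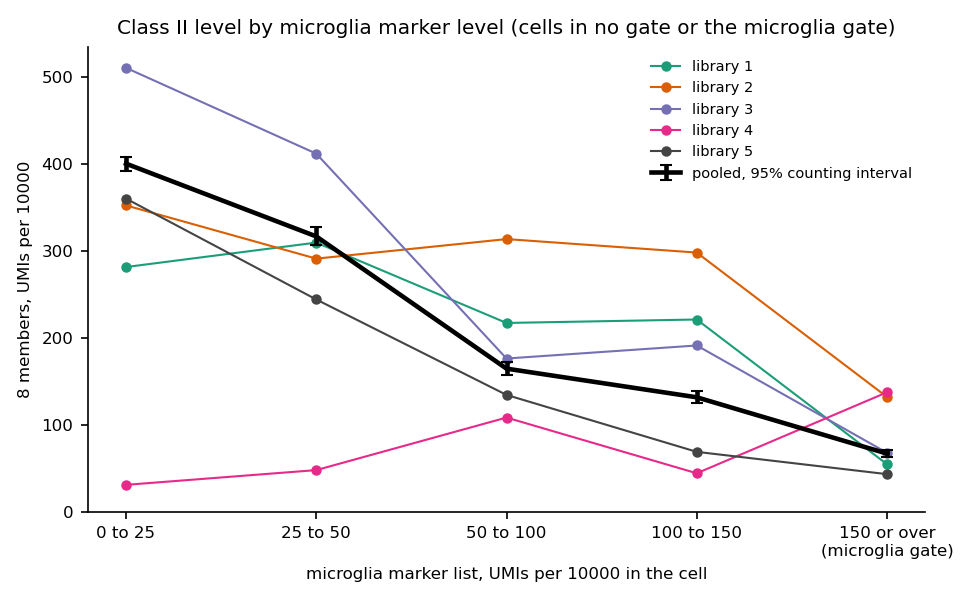
Summed UMIs per 10000 of the 8 members (y axis) in cells of no gate or of the microglia gate, grouped by the level of the microglia list (x axis), with 1 coloured line a library and a black line with 95% Poisson intervals for pooled cells. The pooled line goes from 400.2 to 66.8, while library 4 goes from 30.9 to 137.

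Few of the other class II genes were measurable. H2-Oa, the alpha chain of the DO protein that holds DM back, was at 5.30 UMIs per 10000 in Cd209a-gated cells (45 UMIs in 12 cells) and at 0.72 or less in the 4 other gates. Of those 45 UMIs, 19 came from a single cell of library 1, whose 2 Cd209a-gated cells were too few to enter the fit. In no contrast was H2-Oa called by edgeR or DESeq2. For the Cd209a gate against microglia the edgeR log2 fold change was 2.62 ± 1.12 (adjusted p = 0.071). The unadjusted edgeR p was under 0.05 there and against border macrophage. H2-Ob, the DO beta chain, was at 0.588 in Cd209a-gated and 0.898 in ungated cells. H2-Eb2 and H2-Ea-ps had 3 UMIs and 1 UMI in all, both in ungated cells.

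Of the 12 genes of class II transcription, 4 passed the count filter. Irf8, a transcription factor of myeloid cells, was lower in Cd209a-gated than in microglia-gated cells (-2.43 ± 0.87, edgeR adjusted p = 0.026), on 6 and 61 UMIs. Spi1 and Irf1 passed in no contrast. Rfx5, a subunit of the factor that binds the X box, had 1 UMI in the 5 gates together.

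The processing list holds genes that cut the invariant chain and ingested proteins or mark class II for turnover. Of 8 tested, 6 were lower and 1 higher in Cd209a-gated than in microglia-gated cells, against 12.7% and 11.1% of all genes. Ctss, the cathepsin that trims the invariant chain in myeloid cells, was at 81.9 UMIs per 10000 in microglia-gated, 52.5 in border macrophage-gated, 36.2 in monocyte-gated and 24.5 in Cd209a-gated cells. Against microglia it fell by 2.00 ± 0.40 on the log2 scale in the Cd209a gate (edgeR adjusted p = 1.4e-05) and fell by 1.37 ± 0.39 in the monocyte gate (adjusted p = 0.0073). Ctsl, Ctsd, Lgmn, Ctsb and Ctsz were the other proteases lower in Cd209a-gated cells (-4.08, -2.88, -2.67, -2.27 and -1.74). In monocyte-gated cells, where 7.83% of all genes were lower, 5 of the 8 were lower, Ctsl, Ctsd, Lgmn, Ctss and Ctsz. Ifi30, the thiol reductase that unfolds antigens, was the exception: it was higher in the Cd209a gate (1.37 ± 0.46, adjusted p = 0.016) and in the monocyte gate (1.27 ± 0.46, adjusted p = 0.043), where DESeq2 did not call it.

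In border macrophage-gated against microglia-gated cells none of these 8 genes passed the edgeR test, while 4 had an unadjusted p under 0.05 and DESeq2 called 1 lower. Against border macrophage-gated cells, edgeR called 6 of the 8 lower in Cd209a-gated cells, where 8.91% of all genes were lower, with Ctsb fallen by 3.09 and Ctsd fallen by 1.92 on the log2 scale. DESeq2 called 3 lower and 1 higher there. In neutrophil-gated cells edgeR called 7 of 8 lower than in microglia and DESeq2 called 4, and the edgeR median was -3.79 beside -1.48 for all genes. March1, the ligase that marks class II for degradation, passed in no contrast and was between 1.33 and 3.31 per 10000 in the 5 gates.

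Of 5 class I genes tested with edgeR, none passed in the border macrophage, monocyte or Cd209a gate against microglia, and the medians of their log2 fold changes were 0.73, 0.79 and 0.02. An unadjusted p under 0.05 was reached by 2, 2 and 1 of them, and DESeq2 called 1, lower in the Cd209a gate. B2m, the shared light chain of class I, was at 57.4, 59.3, 64.6 and 39.2 UMIs per 10000 in the microglia, border macrophage, monocyte and Cd209a gates. In neutrophil-gated cells edgeR called B2m and H2-K1 lower (-1.47 and -2.59), where the median of all genes was -1.48, and DESeq2 called neither. The costimulatory gene Cd86, the only 1 of its list tested, passed in no contrast by edgeR or DESeq2, had an unadjusted p under 0.05 in the Cd209a against the microglia and border macrophage gates, and was at 1.88 in microglia-gated and 0.588 in Cd209a-gated cells.

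Of 14 genes that interferon gamma induces, 9 were tested. The GTPase gene Iigp1 was higher in border macrophage-gated than in microglia-gated cells (3.57 ± 1.09, edgeR adjusted p = 0.032), at 3.96 and 0.260 UMIs per 10000. In monocyte-gated cells Cxcl10 (3.82), Cxcl9 (3.13) and the immunoproteasome gene Psmb8 (1.57) were higher. Cxcl9 rested on few cells: 72 UMIs came from 6 of 56 cells, 48 of them from 1 cell. In Cd209a-gated cells, where class II was highest, edgeR called none of the 9 higher, also at an unadjusted p under 0.05, and Gbp7 lower (-3.29 ± 1.26, adjusted p = 0.040), on 1 UMI. DESeq2 called none of the 9 in these contrasts and left some without an adjusted p. The median of the 9 was 0.14 there, beside 1.21 in the border macrophage and 1.57 in the monocyte gate.

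Over the 16 library and gate sums genes whose log2 level followed the class II sum most closely included Rpsa-ps10 (Pearson r = 0.91), Ifi207 (0.89), Rpl10-ps3 (0.88) and Rps3 (0.88), among 1505 genes compared. Rpsa-ps10 and Rpl10-ps3 are pseudogenes that can share reads with their parent ribosomal protein genes. Over the 130 microglia-gated cells, with library means removed, the closest of 389 genes were Clptm1 (0.33), Apoe (0.33), Ly6e (0.26), Lgals3bp (0.26) and Lyz2 (0.26). The sums share libraries and the cells share depth, so these values are given as a description.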

How the data were processed

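The deposited tables hold unnormalized UMI counts, 1 row a gene and 1 column a well, which the authors made by demultiplexing, mapping and filtering reads. Tools named in the submitters' processing notes are bcl2fastq 2.15.0.4, with build mm10. No aligner is named there. The labels describe a preparation of thymus and small intestine, while the tissue label and the study's methods give brain. The members and lists were chosen with earlier results of these data known.

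The 92 ERCC spike-in rows were left out. Wells with at least 500 UMIs were kept, doublets had been excluded in the sort, and no doublet caller was run. A cell passing only the monocyte and Cd209a gates counted as Cd209a-gated. Levels are UMIs per 10000 with exact Poisson intervals. Detection was averaged over 200 draws of 500 UMIs. Sums of at least 5 cells per library and gate were tested with edgeR 4.0.16 in R 4.3.3 (quasi-likelihood, TMM, filter at a count of 5 and a total of 15, library as block, 1 fit over all 5 gates). Gates of 1 library were thus paired by the block. DESeq2 1.42.0, other scalings, depth limits, gate thresholds and leaving out each library were alternatives. The fit had 7 residual degrees of freedom. For 1568 of 1571 genes the spread was taken wholly from the trend shared by all genes. The p-values thus do not reflect the spread of a single gene between libraries. The fit was also run on simulated data, which varied less than the real sums and had no library effect. That run therefore does not show how the test behaves on the real sums. Python 3.11.15 with numpy 2.4.6, scipy 1.17.1, pandas 2.3.3 and matplotlib 3.10.9 was used. Named genes were the 8 members, genes of the first 3 pathway lists, up to 4 called genes of each other list, and the 5 genes most like the class II sum. Some genes named by this rule are not reported here.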

Additional observations from a re-analysis of the deposited data

Results flagged for a closer look

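Of 27 groups of 5 libraries tested, 3 held a library far from the others. Chance flags about 1 in 20 groups if groups are independent and values normally distributed. Neither holds here, since groups share cells and some members have few UMIs. In microglia-gated cells of library 5, H2-DMb2 was at 0.50 UMIs per 10000 and at 0 in the other 4 libraries, on 3 UMIs in all. With the other libraries at 0, any value above 0 is flagged. In microglia-gated cells of library 3, Ciita was at 1.45 per 10000, and the nearest library was at 0.167. In ungated cells of library 1, H2-DMa was at 22.2 per 10000 and the next library at 8.66. A single cell of library 1 with 641 UMIs held 50 of the 770 H2-DMa UMIs of all kept cells.

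Wells that held a cell but fewer than 500 UMIs were outside the comparisons and also carried class II, at 144 UMIs per 10000 over 1075 wells. The 20 empty wells held 2 class II UMIs among 320, or 62.5 per 10000, with an exact Poisson interval of 7.57 to 226 that includes the value of the shallow wells. By library the shallow wells ran from 89.2 in library 4 to 269.7 in library 3. Whether these wells hold intact cells was not tested.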

How the results depend on the processing

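Of the 7 tested members, the number called higher in border macrophage-gated than in microglia-gated cells (5) became 2 with cells from 300 UMIs, 3 without Gm42418, Gm26917 and mitochondrial genes, and 2 without the cells richest in H2-DMa (ungated) and H2-DMb2 (Cd209a-gated), an alternative chosen after seeing the data. For monocyte-gated cells (5) it became 2 from 300 UMIs, 3 with halved gate thresholds and 3 with no count filter. For neutrophil-gated cells the number lower (3) became 0 with DESeq2 and 0 with the 2 gates fitted alone. For Cd209a-gated against border macrophage-gated cells (0) it became 1 from 1000 UMIs, 1 with halved thresholds, 1 without those genes, 2 with at least 10 cells a sum and 3 with the 2 gates fitted alone. For Cd209a-gated against monocyte-gated cells (0) it became 1 with halved thresholds and 1 with at least 10 cells a sum. Library size alone and no library block left each of these counts as it was. The cause of these changes was not tested. TMM factors of the sums ran from 0.74 to 2.00.

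Leaving out 1 library at a time gave 0 to 5 members for border macrophage (0 without library 3 or 5, 2 without library 1), 0 to 7 for Cd209a (0 without library 3, 1 without library 5), 0 to 5 for monocyte (0 without library 3 or 5) and 1 to 3 lower for neutrophil (1 without library 3, 4 or 5), all against microglia. For Cd209a against border macrophage or monocyte it gave 0 to 1. Without library 3 or 5 a single border macrophage sum was left, assumed to vary like the others. Contrasts with microglia under doubled thresholds, and with neutrophils from 1000 UMIs or with 10 cells a sum, were not fitted, since fewer than 2 libraries held both gates.

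Some values that were not called changed sign. H2-DMa in the Cd209a against the border macrophage gate (-0.055) was 0.22 from 300 UMIs, 0.051 from 1000 UMIs, 0.002 without those genes, 0.045 with 10 cells a sum, 0.11 with DESeq2, 0.24 with library size alone and -0.26 to 0.11 with a library left out. With doubled thresholds it was 0.20 in the Cd209a against the monocyte gate and 0.31 in the border macrophage against the monocyte gate. With a library left out, the latter ran from -0.36 to 0.18, and H2-DMb2 there from -1.15 to 0.96. H2-DMb2 in the neutrophil gate, with 0 UMIs, ran from -2.59 to 1.60.

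The summed level of border macrophage-gated cells was 315 with halved and 252 with doubled thresholds and 372 without those genes, that of Cd209a-gated cells 567 without those genes, and that of cells in more than 1 gate 50.8 with doubled thresholds, in 2 cells. That of microglia-gated cells was 90.7 with halved and 40.6 with doubled thresholds, the latter in 19 cells. The share of border macrophage-gated cells with at least 3 members was 58.0% from 300 UMIs, 69.7% from 1000, 71.1% with halved and 63.7% with doubled thresholds, 70.9% without those genes and 68.8% to 69.98% with a library left out. With cells from 300 UMIs, thinned to 300, it was 96.3% for Cd209a-gated, 11.04% for microglia-gated and 1.52% for neutrophil-gated cells, and with doubled thresholds 8.47% for microglia-gated cells. Scaling also moved the split of all called genes between higher and lower. For border macrophage against microglia it was 37 to 26, and 15 to 28 with DESeq2. For Cd209a it was 174 to 199, and 218 to 156 with library size alone. For monocyte it was 95 to 123, and 55 to 142 with DESeq2. For neutrophil it was 74 to 216, and 126 to 41 with DESeq2. For Cd209a against border macrophage it was 77 to 140, and 121 to 79 with DESeq2. For Cd209a against monocyte it was 6 to 23, and 42 to 14 with DESeq2. For border macrophage against monocyte it was 55 to 24, and 48 to 36 with library size alone. Depth limits H2-DMb2 and Ciita, with 87 and 105 UMIs in all kept cells.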
